A study of Mus musculus with 9 samples.

Results

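The cytosolic ribosome is built from ribosomal RNA and a set of ribosomal proteins, and the genes for those proteins were followed here in a nucleus of the mouse thalamus, the dorsal lateral geniculate nucleus (dLGN), through which retinal signals reach the visual cortex. They were taken by symbol, as every gene named Rpl or Rps with a number and at most 1 further letter, together with Rplp0, Rplp1, Rplp2 and Rpsa. The rule leaves out S6 kinases, pseudogenes and the proteins of the mitochondrial ribosome. It found 78 genes among the 20707 genes of the deposited tables, of which 47 carry a large subunit name and 31 a small subunit name. The rule itself uses names and no expression value, but the family was chosen with earlier results of these data known.

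The groups were mice given 0 h, 1 h or 8 h of light, with 3 libraries in each. All were C57BL/6J wild-type mice of both sexes, and all had been kept in the dark from postnatal day 20 to 27. Light therefore followed a week of darkness, and no normally reared group is among these libraries. The tissue was microdissected from slices, and its total RNA was sequenced after removal of ribosomal RNA. In such bulk tissue, fewer cells of a type and less RNA per cell cannot be told apart.

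Ribosomal proteins stabilise the folded ribosomal RNA and line the sites where messenger RNA, transfer RNA and translation factors bind. Each is needed in about the same number as the others, because a ribosome holds a single copy of nearly every one. Their messenger RNAs carry a run of pyrimidines at the very start, the TOP motif, through which mTORC1 signalling and the protein Larp1 control their translation. In neurons their messenger RNAs are also found in axons and dendrites, and phosphorylation of the small subunit protein Rps6 is widely used as a mark of recent activity.

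Depth ran between 5.73 and 22.6 M counted reads per library, so that 3 reads, taken as the floor of detection, correspond to between 0.510 and 0.136 CPM. CPM are read counts scaled to the size of the library. All 8 markers of dLGN relay neurons had reads in all 9 libraries, and so did the 8 oligodendrocyte markers. Markers of cortical and hippocampal neurons summed to between 415 and 695 CPM at 0 h, between 364 and 615 CPM at 1 h and between 431.0 and 527 CPM at 8 h. Inhibitory neuron markers ran from 161.1 to 474.6 CPM within 0 h alone. Between 0 h and 8 h, relay neuron sums (4187 to 4523 and 4608 to 4984 CPM) did not overlap. Neither did microglia sums (304.1 to 327.3 and 272.4 to 289.9 CPM), which went the other way. The mix of cells was therefore not shown to be even, and its part in the results was not tested. In 7 of the 9 libraries the female transcript Xist (217 to 520.4 CPM) and the Y-linked gene Ddx3y (15.3 to 38.5 CPM) were both above 10 CPM. These 7 libraries therefore held RNA of both sexes, although the labels speak of 3 mice for each light time and of a separate sample from each, so p-values measure the spread between libraries. Ddx3y stood at 60.6 CPM and Xist at 0.334 CPM in 0 h replicate 3, the reverse pattern stood in 8 h replicate 2, and the part of this difference in the results was not tested.

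The 78 genes differed widely in measured level. Divided by exonic length, the mean level over the 9 libraries ran from 0.155 CPM per kb for Rpl3l to 214 CPM per kb for Rplp1, a ratio of 1381. The deposited exonic length can far exceed the main annotated transcript, as for Rps15a (5136 against 640 bases) and Rpl18 (2983 against 679). Levels per kb therefore depend on the annotation, and its part in the spread was not tested. Rpl3l is a muscle form that replaces another member rather than adding to it, and without it, left out after its level was seen, the lowest gene was Rpl38 at 0.408 CPM per kb and the ratio was 524.5. The median gene stood at 13.2 CPM per kb, and the 90th percentile was 96.1 times the 10th. Among 77 genes for mitochondrial ribosomal proteins in the same libraries, the highest level was 40.7 times the lowest, and the 90th percentile was 5.32 times the 10th. The 10 highest cytosolic genes held 50.8% of the summed CPM of all 78. At the other end, 16 genes averaged under 1 CPM, 11 had fewer than 100 reads over all 9 libraries, and Rpl3l and Rps29 had 0 reads in 1 library each.

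**Figure D1:**
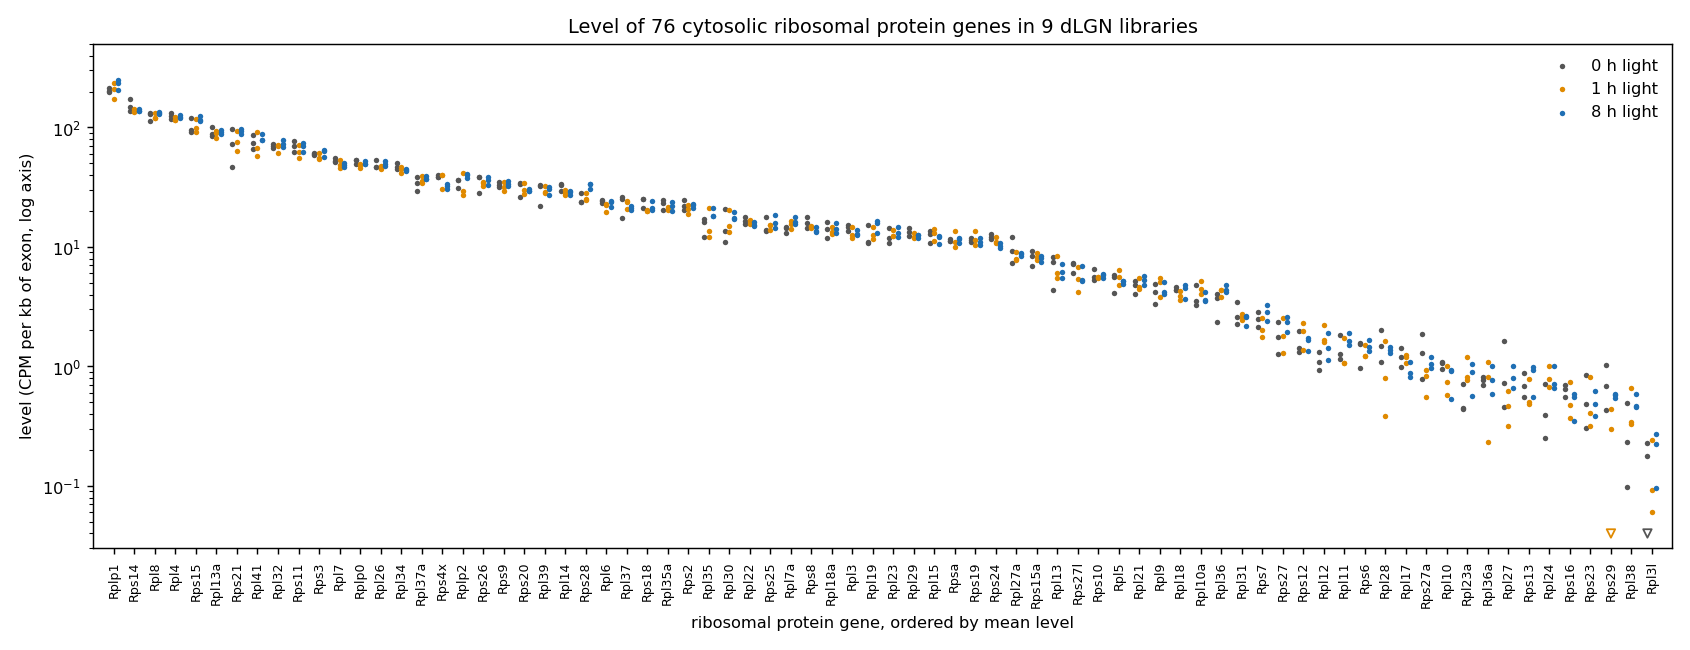
Level of each of 76 of the 78 ribosomal protein genes in CPM per kb of exon (log axis) in 9 libraries, with genes ordered by their mean and points coloured by light time; open triangles mark the 2 values of 0. The 3 light times lie on top of each other for most genes, while the genes themselves run from 0.155 to 214 CPM per kb.

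Genes for proteins of the same working part of the ribosome were far apart in measured RNA level. No protein was measured. In the P stalk, which recruits elongation factors, Rplp1 stood at 214 CPM per kb, its anchor Rplp0 at 50.2, Rplp2 at 35.7 and Rpl12, at the base of the stalk, at 1.48. Over the 9 libraries Rplp1 ran from 173 to 251 CPM per kb and Rpl12 from 0.942 to 2.23, so the ranges did not meet. Around the tunnel through which the new protein leaves, Rpl4 stood at 122 CPM per kb, Rpl26 at 48.3, Rpl39 at 29.7, Rpl35 at 16.6, Rpl19 at 13.5, Rpl31 at 2.62, Rpl17 at 1.10 and Rpl23a at 0.767. Near the catalytic centre and the transfer RNA sites, Rpl8 reached 127 CPM per kb, against 13.6 for Rpl3, 4.06 for Rpl10a of the L1 stalk, 0.867 for Rpl10 and 0.753 for Rpl36a. Rpl5 and Rpl11, which enter the ribosome together with 5S ribosomal RNA, stood at 5.29 and 1.47 CPM per kb.

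Small subunit genes were likewise spread. Of the genes for proteins at the messenger RNA entry channel, Rps3 stood at 59.5 CPM per kb, Rps9 at 33.2 and Rps2 at 21.8. In the head and the decoding centre, Rps15 stood at 107.8 CPM per kb, Rps12 at 1.68 and Rps23 at 0.519, while Rpsa, also known as the laminin receptor, stood at 11.5. Rps6, the substrate of the S6 kinases, was low at 1.39 CPM per kb, and Rps27a, made as a fusion with ubiquitin, stood at 1.05. Among genes mutated in human Diamond-Blackfan anaemia, Rps7 stood at 2.48 CPM per kb, Rps10 at 5.70, Rps24 at 11.3, Rps19 at 11.5, Rpl35a at 21.9 and Rps26 at 35.0. Such orders depend on the deposited length. Before division by length, Rps24 averaged 42.0 CPM at 0 h and Rps26 15.7 CPM, with deposited lengths of 3432 and 448 bases. Rpl3l, which replaces Rpl3 in striated muscle, was the lowest of all, while Rps27l, a copy of Rps27, stood at 6.06 CPM per kb, above Rps27 itself at 1.99. That order is uncertain, because 98.65% of the 50-base stretches of Rps27 also occur in another annotated gene, against 22.44% for Rps27l.

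Ribosomal protein genes have many processed pseudogenes, and reads that match several places are counted or dropped by rules that the sources used here do not give. To see how much of each transcript is shared, every stretch of 50 bases of its main annotated transcript was looked up in all other genes of the GENCODE M21 annotation (GRCm38), on both strands. A median of 54.1% of the stretches of a cytosolic ribosomal protein gene also occurred in another gene, against 3.01% for the mitochondrial ones. Of the 78 genes, 76 shared a stretch with at least 1 annotated pseudogene, with a median of 8 pseudogenes and up to 121 for Rpl7a. Among the 77 mitochondrial genes, 32 shared one.

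Coding stretches of 90 bases illustrate unique and shared sequence in some high and some low genes. Capitals mark bases that lie in a stretch of 50 bases found in another annotated gene, so an all lower case stretch is unique and an all capital one is shared throughout. Rpl8 and Rpl4, high in these libraries, are unique here, whereas Rps6, Rps27 and Rpl23a, low in these libraries, are shared with 14, 6 and 19 other genes. The Rps3 stretch is shared in part, with 1 gene, but only 2.96% of the 50-base stretches of the whole Rps3 transcript are shared. The sequences, read 5′ to 3′ along the transcript from GENCODE M21 on GRCm38, lie at chr15:76904818-76904907 (plus strand, exon 4 of Rpl8), chr9:64178223-64178312 (plus, exon 10 of Rpl4), chr7:99479381-99479470 (minus, exon 6 of Rps3), chr4:86854866-86854955 (minus, exon 5 of Rps6), chr3:90212955-90213044 (minus, exon 3 of Rps27) and chr11:78182897-78182986 (minus, exon 2 of Rpl23a). The genes were picked after their levels had been seen, to show both ends. Stretches of Rpl10 and Rpl3 were also taken and are not printed. Both are shared throughout, with 11 and 6 other genes. Rpl10 stood at 0.867 CPM per kb, but Rpl3 stood at 13.6, beside 13.2 for the median gene, so a shared stretch did not always go with a low level.
Rpl8: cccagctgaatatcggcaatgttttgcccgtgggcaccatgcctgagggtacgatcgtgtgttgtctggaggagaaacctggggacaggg
Rpl4: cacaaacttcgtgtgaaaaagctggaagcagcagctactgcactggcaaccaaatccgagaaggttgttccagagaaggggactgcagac
Rps3: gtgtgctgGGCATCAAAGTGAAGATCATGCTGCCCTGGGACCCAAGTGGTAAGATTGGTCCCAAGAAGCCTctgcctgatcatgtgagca
Rps6: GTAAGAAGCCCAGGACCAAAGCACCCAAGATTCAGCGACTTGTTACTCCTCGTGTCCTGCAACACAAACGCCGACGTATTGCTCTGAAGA
Rps27: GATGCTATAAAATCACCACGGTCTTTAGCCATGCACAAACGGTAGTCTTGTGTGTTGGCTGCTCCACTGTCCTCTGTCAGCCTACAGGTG
Rpl23a: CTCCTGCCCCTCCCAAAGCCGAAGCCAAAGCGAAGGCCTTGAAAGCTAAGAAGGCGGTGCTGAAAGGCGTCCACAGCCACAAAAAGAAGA

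Across the 78 genes, the shared percentage and the level per kb had a Spearman correlation of -0.432 with stretches of 50 bases, -0.357 with 36 bases and -0.529 with 75 bases. This is a description across genes, which share their libraries and their annotation. The 26 genes with the least sharing, up to 39.0% of stretches, had a median level of 34.1 CPM per kb, the middle 26 had 12.5, and the 26 with the most sharing, from 71.9%, had 4.15. Several genes went the other way. Rpl3l was unique throughout and yet the lowest, and Rps29, Rps16 and Rpl38 were under 1 CPM per kb with 35.8%, 41.6% and 52.1% of their stretches shared. Rplp1 was the highest with 60.0% shared, and Rpl35 stood at 16.6 CPM per kb with 95.1% shared. The shared percentage rests on the main annotated transcript and the level on the deposited exonic length, and these can differ widely. They were 946 and 452 bases for Rpl35, 3706 and 502 for Rps20, and 474 and 2497 for Rpl22. The part of such differences in the correlations, the groups of 26 and these single genes was not tested. Reads from other copies could also be counted to a gene, and how much of the spread in level comes from counting was not tested. Levels of single genes are therefore uncertain, while comparisons of a gene with itself between light times rest on the same counting.

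**Figure D2:**
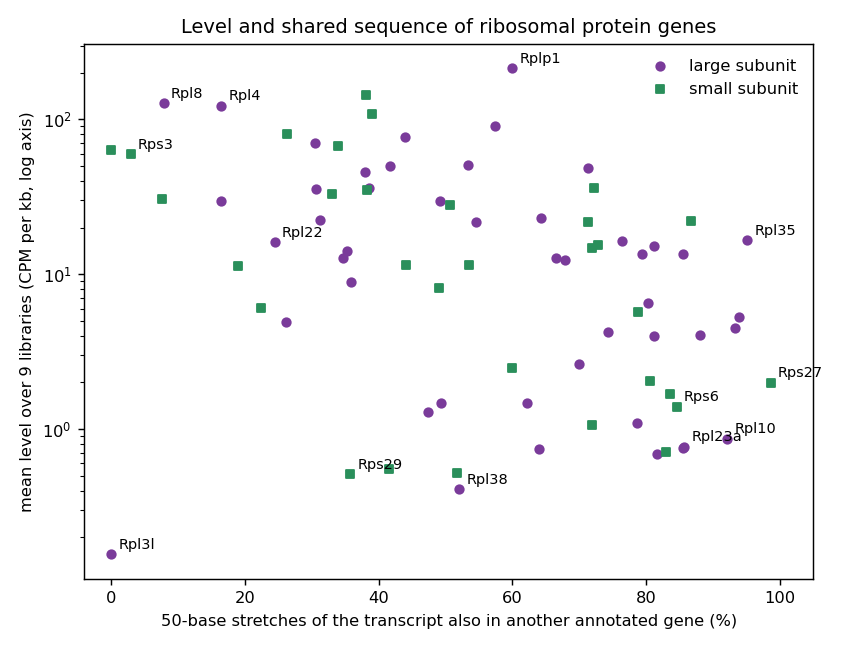
Share of a transcript's 50-base stretches that also occur in another annotated gene (percent) against the mean level over 9 libraries (CPM per kb, log axis), 1 point per gene, circles for the large and squares for the small subunit. Genes above 80% shared lie at or below 21.9 CPM per kb, while Rpl3l is low with 0% shared.

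Exons add further uncertainty. Overlaps were taken over the exons of all GENCODE M21 transcripts of a gene, not over the deposited gene models. Of the 78 genes, 41 shared no exonic base with another annotated gene. On the same strand 27 shared bases, mostly with small nucleolar RNAs, and 18 shared bases with a gene on the other strand. The sources used here do not give the strand setting of the counting. Rpl35 shared 821 of 1241 such bases with Arpc5l and Wdr38, but its deposited exonic length is 452 bases. Rps28 shared 88 of 1719 with Kank3, and its deposited length is 391 bases. The overlaps therefore include exons outside the deposited gene models. How many counted bases they touch was not tested.

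Summed over all 78 genes, ribosomal protein messenger RNA stayed a nearly constant fraction of the library. The sum was 1839, 1809 and 1932 CPM at 0 h, 1734, 1852 and 1772 CPM at 1 h, and 1899, 1860 and 1852 CPM at 8 h. The 3 groups overlapped, but 8 h and 1 h only just, with the lowest 8 h library at 1851.73 CPM and the highest 1 h library at 1851.98 CPM. Means and their SD over 3 libraries were 1860 ± 64.1 CPM at 0 h, 1786 ± 60.2 CPM at 1 h and 1870 ± 25.1 CPM at 8 h, differences of the order of the spread between libraries. In raw reads the genes took between 0.173% and 0.190% of a library.

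The balance between the subunits was steady. Large subunit genes summed to 1116 ± 46.6 CPM at 0 h, 1078 ± 40.5 CPM at 1 h and 1129 ± 15.6 CPM at 8 h, with the SD over 3 libraries. Small subunit genes summed to 744 ± 19.2 CPM at 0 h, 709 ± 21.3 CPM at 1 h and 741.5 ± 10.3 CPM at 8 h. All 8 h libraries, at 734 CPM or more, lay above all 1 h libraries in this small subunit sum, by a narrow margin over the highest 1 h library at 733 CPM, while 8 h and 1 h each overlapped 0 h; this difference was not tested. The ratio of large to small was 1.499 ± 0.032 at 0 h, 1.52 ± 0.027 at 1 h and 1.52 ± 0.013 at 8 h, and lay between 1.46 and 1.55 in every library.

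**Figure D3:**
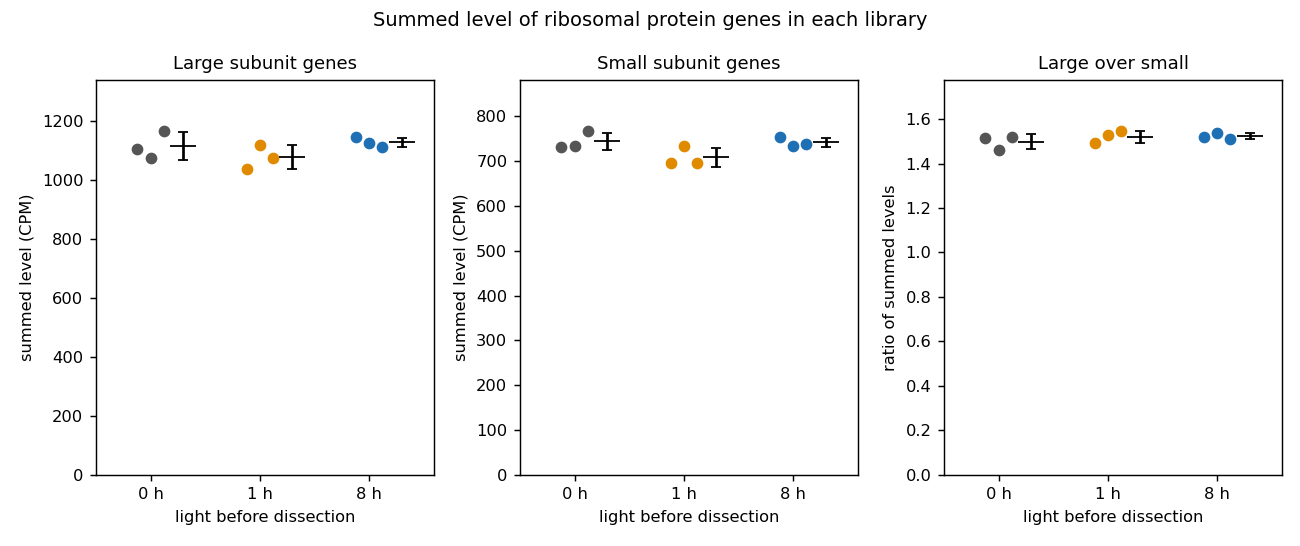
Summed level of the 47 large subunit genes and of the 31 small subunit genes (CPM, from 0), and the ratio of the sums, in each of 3 libraries per light time (points), with mean and SD beside them (black). The light times overlap in all 3 panels except for 8 h and 1 h in the small subunit sum, where the lowest 8 h library (733.6 CPM) is just above the highest 1 h library (733.2 CPM), and the ratio stays between 1.46 and 1.55.

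A single library, 0 h replicate 3, stood highest. Among the 48 genes with a mean of at least 10 CPM, 39 were above their own mean over the 9 libraries there, against 11 in 1 h replicate 1, the lowest library. Relative to each gene's mean, the median was 0.09 on the log2 scale in 0 h replicate 3 and -0.08 in 1 h replicate 1. Transcripts encoded by the mitochondrial genome also summed highest in 0 h replicate 3, to 57780 CPM, against 23740 CPM in 0 h replicate 1, and their part in the result was not tested.

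After 8 h of light, no ribosomal protein gene passed the test. None of the 69 genes tested was called higher or lower than at 0 h by edgeR's quasi-likelihood test at a Benjamini-Hochberg adjusted p under 0.05, while 0.528% of the 15330 genes tested were called higher and 0.0587% lower. DESeq2 and limma-voom also called 0. At an unadjusted p under 0.05 there were 3 of the 69, against 10.2% of all genes tested, and this number ran from 3 to 11 when a library was left out, with 5 without 0 h replicate 2 or 8 h replicate 3 and 11 without 0 h replicate 3. The other 9 genes had too few reads to be tested. The median log2 fold change of the 69 was -0.020, beside -0.005 over all genes, 30 of the 69 were above 0 against 48.7% of all genes, and the large and small subunit medians were -0.016 and -0.022. Without 0 h replicate 3 the median was 0.018.

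The genes nearest to the threshold belonged to the small subunit. Rps4x, an X-linked protein of the small subunit body, had 27.1, 29.7 and 28.4 CPM at 8 h, against 33.8, 35.2 and 33.8 CPM at 0 h. All 3 libraries at 8 h were below all 3 at 0 h, and the log2 fold change was -0.27 ± 0.08 (SE; edgeR adjusted p = 0.186). Of the 2 libraries of a single sex, 8 h replicate 2 had 29.7 CPM and 0 h replicate 3 had 33.8 CPM. They belong to different light times, and the part of sex in this difference was not tested. Rps24, mutated in Diamond-Blackfan anaemia, had 37.0, 33.4 and 34.9 CPM at 8 h, against 44.4, 41.8 and 39.9 CPM at 0 h, again without overlap, and the log2 fold change was -0.25 ± 0.08 (edgeR adjusted p = 0.252). Rps28, a short protein near the exit of the messenger RNA channel, went the other way, with 13.2, 13.3 and 12.04 CPM at 8 h, against 9.35, 9.30 and 11.1 CPM at 0 h. Its groups did not overlap either, and the log2 fold change was 0.37 ± 0.12 (edgeR adjusted p = 0.264). None of these differences passes the correction over all genes. In the deposited tables (GRCm38) the genes lie at chrX:102184943-102189306, chr14:24490633-24496146 and chr17:33823036-33824557. In GENCODE M21, Rps4x and Rps24 share no exonic base with another annotated gene.

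In total 5 genes had all 8 h libraries above all 0 h libraries, where 8.4% of all genes did, and 5 had them all below, where 7.89% did. Each is 7.25% of the 69, under the share among all genes. Beside Rps28, the first set held Rpl35 of the tunnel rim, Rplp2 of the P stalk, Rpl7a and Rpl36. Beside Rps4x and Rps24, the second held Rpl7, Rpl14 and Rpl10. Rplp2 had 26.0, 24.2 and 25.2 CPM at 8 h, against 19.9, 22.9 and 23.2 CPM at 0 h, a log2 fold change of 0.18 ± 0.09 (edgeR adjusted p = 0.519).

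The data also bound how large a change could have been missed. For 49 genes the mean over both groups was at least 10 CPM, and for all 49 the 95% interval of the fold change excluded a doubling and a halving. For 45 of them it also excluded a change of 1.5-fold in either direction. The outermost bounds were 0.697-fold for Rpl27a and 1.64-fold for Rps21. Rps21, a small subunit protein, had 40.6, 38.9 and 36.8 CPM at 8 h, against 19.5, 30.6 and 40.6 CPM at 0 h, so the spread at 0 h set its wide interval of 0.945 to 1.64. For Rpl4, the gene with most reads per library, the interval was 0.894 to 1.09-fold. Rps6 was low, with 2.30, 2.03 and 1.89 CPM at 8 h, against 1.36, 2.20 and 2.14 CPM at 0 h, and its interval of 0.722 to 1.51 does not exclude a 1.5-fold rise at this depth.

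The widest fold changes came from genes with few reads, and their intervals are wide. Rpl36, a large subunit protein, had 3.03, 2.67 and 2.75 CPM at 8 h, against 2.38, 1.505 and 2.54 CPM at 0 h, the highest log2 fold change of the 69 at 0.44 ± 0.25, with an interval of 0.929 to 1.99-fold. Rpl17 of the tunnel had 1.13, 0.853 and 0.918 CPM at 8 h, against 1.02, 1.24 and 1.47 CPM at 0 h, the lowest at -0.39 ± 0.28, and these overlapped. Rpl10, which is placed late in the making of the large subunit, had 0.723, 0.427 and 0.746 CPM at 8 h, against 0.850, 0.752 and 0.868 CPM at 0 h, with an interval of 0.456 to 1.34-fold. At 1 h the ubiquitin fusion gene Rps27a had 0.684, 0.763 and 0.455 CPM, against 1.53, 0.645 and 1.07 CPM at 0 h, a log2 fold change of -0.64 ± 0.42 that did not pass the test and whose groups overlapped.

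**Figure D4:**
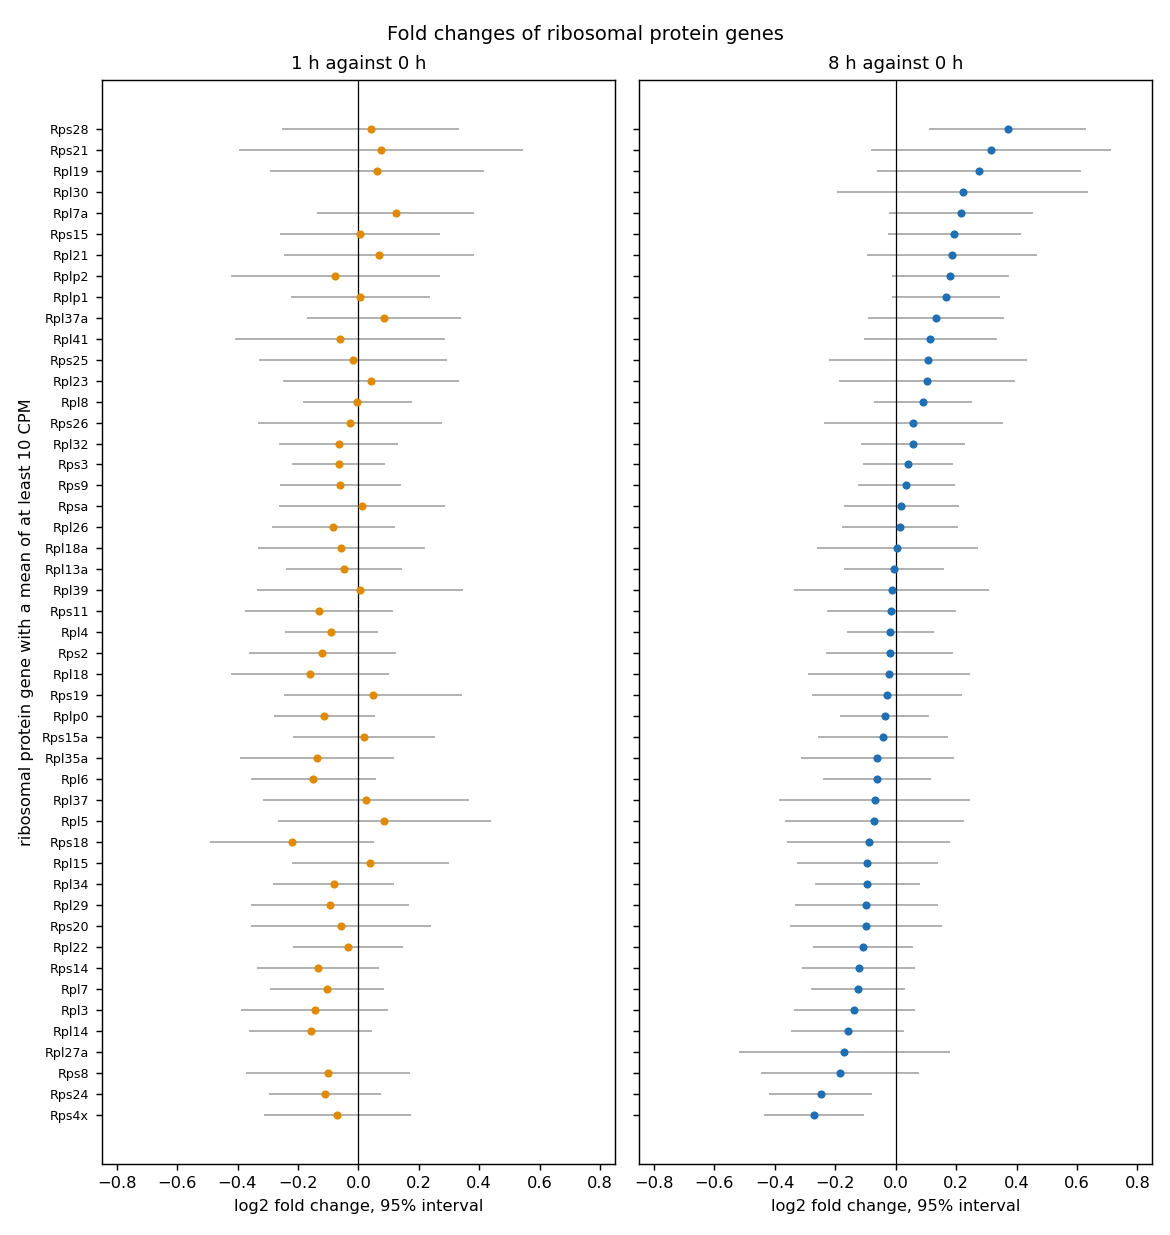
Log2 fold change of ribosomal protein genes with its 95% interval, for 1 h against 0 h (left) and 8 h against 0 h (right); 48 of the genes with a mean of at least 10 CPM, ordered by the value at 8 h, with Rpl30 and Rpl27a, below 10 CPM over the 1 h and 0 h libraries, drawn on the right only. Intervals include 0 for all genes but Rps28, Rps24 and Rps4x at 8 h, and none passed the test adjusted over all genes.

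After 1 h of light there was likewise no call. By edgeR, 0 of 68 genes tested differed from 0 h, where 0.0132% of 15164 genes were called higher and 0.0% lower, and DESeq2 and limma-voom called 0. A single gene had an unadjusted p under 0.05, against 3.2% of all genes, and 0 or 1 had when a library was left out. The smallest edgeR adjusted p was 0.9997. The median log2 fold change was -0.061, beside 0.003 over all genes, and 25 of the 68 were above 0, against 50.9% of all genes. That median was -0.026 without 0 h replicate 3 and -0.044 without 1 h replicate 1, the libraries where these genes stood highest and lowest, and -0.092 without 1 h replicate 2.

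The gene with the unadjusted p was Rpl12 of the stalk base, a low gene, with 1.03, 1.06 and 1.42 CPM at 1 h, against 0.850, 0.699 and 0.601 CPM at 0 h. Its log2 fold change was 0.78 ± 0.33 (edgeR adjusted p = 0.9997), with the 1 h libraries above the 0 h libraries, as were 4.23% of all genes. At 8 h it had 0.723, 0.907 and 1.20 CPM, which overlaps 0 h. In total 4 genes had all 1 h libraries below all 0 h libraries, among them Rps18, Rpl6 and Rpl18, where 4.39% of all genes did. Rps18, a head protein of the small subunit, had 10.5, 10.5 and 10.6 CPM at 1 h, against 13.1, 11.0 and 13.1 CPM at 0 h, with a log2 fold change of -0.22 ± 0.12 (SE; edgeR adjusted p = 0.9997). All 47 genes at 10 CPM or more had intervals that excluded 1.5-fold in either direction, with outermost bounds of 0.711-fold for Rps18 and 1.46-fold for Rps21.

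Between 8 h and 1 h, edgeR called 0 of 70 genes tested, beside 0.507% of 15586 genes called higher and 0.0962% lower, and DESeq2 and limma-voom called 0. Only Rps28 had an unadjusted p under 0.05, against 8.9% of all genes. It had 13.2, 13.3 and 12.04 CPM at 8 h, against 9.69, 9.80 and 11.1 CPM at 1 h, a log2 fold change of 0.33 ± 0.11 (edgeR adjusted p = 0.337). Without 1 h replicate 2 the number with an unadjusted p under 0.05 was 9, and the smallest adjusted p was 0.0556, for Rplp2, whose adjusted p ran from there to 0.947 over the alternatives. Without any other library the number was 1 or 2. Of the 70 genes, 46 were above 0, against 48.4% of all genes, with a median of 0.072 beside -0.006 over all genes. The 8 h libraries all lay above those at 1 h for 4 genes, where 8.34% of all genes did (Rps28, Rps18, Rpl27 and Rps27a), and below them for Rps24 alone, where 6.97% did. These comparisons share libraries, so the values of a gene in them are not independent.

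Of the genes of the working parts named above, Rpl36a and Rps23 had too few reads to be tested in any comparison and Rpl23a too few at 8 h or 1 h against 0 h. None of those tested passed. In the P stalk, the log2 fold changes of Rplp0, Rplp1, Rplp2 and Rpl12 at 8 h against 0 h were -0.04 ± 0.07, 0.17 ± 0.08, 0.18 ± 0.09 and 0.44 ± 0.34 (SE). Rplp1 had 109.8, 117.3 and 95.7 CPM at 8 h, against 95, 92.2 and 101 CPM at 0 h, and these overlapped. The catalytic centre protein Rpl8 had 114, 117 and 111 CPM at 8 h, against 115, 97.0 and 112 CPM at 0 h, and the tunnel protein Rpl4 had 182, 169.8 and 176 CPM at 8 h, against 189.7, 167 and 179 CPM at 0 h. Both sets overlapped. Rps14, a platform protein and the second highest gene per kb, had 82.4, 81.5 and 85.7 CPM at 8 h, against 104, 88.0 and 82.5 CPM at 0 h, and its interval was 0.807 to 1.05-fold. The 5S partners gave -0.07 ± 0.13 for Rpl5 and 0.34 ± 0.29 for Rpl11, and neither passed the test.

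Length was associated with the small differences at 8 h. Among the 49 genes at 10 CPM or more, 21 of at most 862 exonic bases, the median of the genes tested, had a median log2 fold change of 0.059 with 13 above 0, and the 28 others had -0.039 with 8 above 0. The Spearman correlation of length and log2 fold change was -0.342 over these 49 genes, -0.068 over 47 genes at 1 h against 0 h and -0.391 over 48 genes at 8 h against 1 h, each a description across genes of the same libraries. Short genes outside this family were also above 0 more often than not. Of 177 other genes of at most that length and at 10 CPM or more, 136 were above 0 at 8 h against 0 h, with a median of 0.080, and at 1 h against 0 h 78 of 171 were above 0, with a median of -0.009. Within libraries, the shorter ribosomal protein genes had medians relative to their own means of 0.06, 0.09 and 0.02 at 8 h, against -0.08, -0.05 and 0.12 at 0 h, so 0 h replicate 3 went against the other 0 h libraries. The part of length in the differences of Rps28, the second shortest of the 78, and of Rps21 was not tested.

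**Figure D5:**
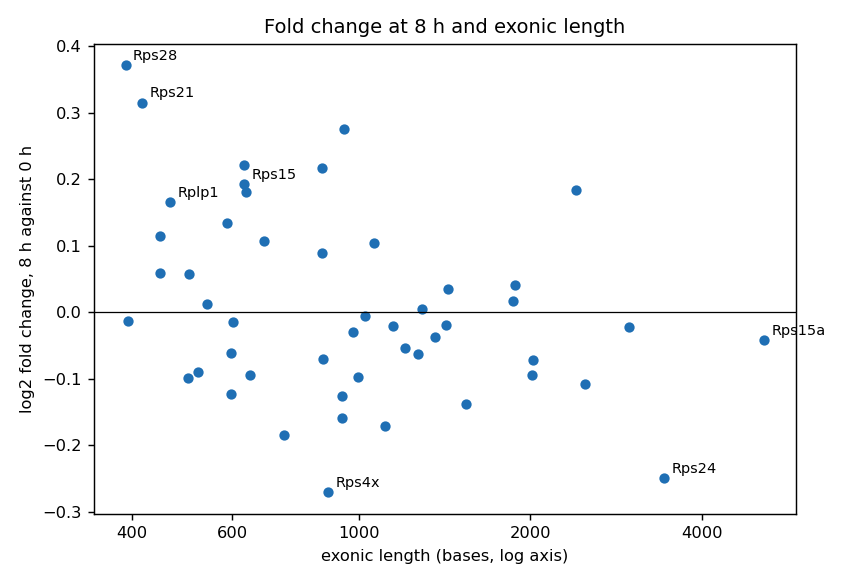
Exonic length (bases, log axis) against log2 fold change at 8 h relative to 0 h for the 49 genes with a mean of at least 10 CPM, 1 point per gene. Rps28 and Rps21 lie at the short and high end, and Rps24 at the long and low end.

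The wider translation machinery showed no calls either, and the lists are described by counts beside the background given above. In each of the 3 comparisons edgeR called 0 of 16 elongation factors and other TOP messenger RNAs, 0 of 35 initiation factors, 0 of 50 genes of ribosome assembly and RNA polymerase I, 0 of 26 genes of mTORC1, S6 kinases and translation control, and 0 of 10 small nucleolar RNA hosts. Eef2, the factor that moves the ribosome along, averaged 1031 CPM (± 17.2) at 8 h, against 1036 CPM (± 64.3) at 0 h (SD, n = 3 each, here and in the next 2 sentences). Nucleolin, encoded by Ncl and needed for ribosomal RNA synthesis, averaged 156 CPM (± 3.92) at 8 h, against 151.5 CPM (± 15.7) at 0 h. Larp1, the TOP binding protein, averaged 182 CPM (± 3.36) at 8 h, against 171 CPM (± 13.2) at 0 h. Of the 77 mitochondrial ribosomal protein genes, 0 were called, with medians of 0.056 at 8 h against 0 h and -0.006 at 1 h against 0 h. Among 14 rapid activity genes tested in these libraries, by contrast, 6 rose at 8 h and 2 at 1 h against 0 h, and 0 fell in either.

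The region around the annotated start of these genes was searched for runs of pyrimidines. RefSeq promoter sequences on GRCm38.p6 were matched by symbol or gene ID for 58 of the 78 genes, and the run sought was an unbroken one of at least 8 C or T, on the strand of the gene only, within 25 bases of the start. It could lie before or after the start, so this search is looser than the TOP motif. Runs that begin at the first base of the messenger RNA were not counted apart. Such a run was found in 48.3% of the 58 genes (28 genes), in 23.5% of 68 mitochondrial ribosomal protein genes and in 19.2% of all 14963 genes with a promoter. The 5 genes with the longest runs are printed, with the run in capitals and 5 bases before it. In the order printed, the runs began at -14, -4, -17, -7 and -4 bases from the annotated start, all before it. They lie at chr2:26910788-26910817 (plus strand), chr7:109519186-109519215 (plus), chr3:130730330-130730359 (minus), chr2:39005114-39005143 (minus) and chr14:18270966-18270995 (minus).
Rpl7a: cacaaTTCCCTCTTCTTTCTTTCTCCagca
Rpl27a: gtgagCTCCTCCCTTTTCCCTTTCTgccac
Rpl34: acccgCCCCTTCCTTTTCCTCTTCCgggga
Rpl35: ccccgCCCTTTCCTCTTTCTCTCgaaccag
Rpl15: gaaagCCTTCTTCCTTTCCTCTggcggcag

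These 5 genes had differences of both signs at 8 h. The log2 fold change at 8 h against 0 h was 0.22 ± 0.11 for Rpl7a, 0.32 ± 0.15 for Rpl35, -0.09 ± 0.08 for Rpl34, -0.09 ± 0.10 for Rpl15 and -0.17 ± 0.16 for Rpl27a (SE), and none passed the test. A match is a description of letters and not of a working site.

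In the authors' deposited table, the smallest FDR of the 78 genes was 0.352 (Rps28) at 8 h against 0 h and 1.0 at 1 h against 0 h. The number of genes with an authors' fold above 1 was 37 of 78 at 8 h and 31 of 78 at 1 h in the authors' deposited table.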

How the data were processed

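Total RNA of 9 dLGN libraries was sequenced, per the labels' protocols, after ribosomal RNA depletion on a NextSeq 500. The submitters' processing notes list GRCm38 (mm10), BWA and edgeR 3.14.0, with no role for each. The sources used here do not give the read counter, the annotation, the read length, the strand setting or the treatment of reads with several matches. The deposited counts are whole reads per gene. The deposited density is a signal that the authors made from count, exonic length and a constant per library, and it was only checked (largest deviation 0.893%). The authors' fold (a ratio) and p-value with FDR, in the deposited tables, are quoted as theirs.

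From the counts, edgeR 4.0.16 in R 4.3.3 (TMM, filterByExpr, estimateDisp, glmQLFit, glmQLFTest; two-sided; Benjamini-Hochberg over all genes tested; threshold 0.05) compared 8 h with 0 h and 1 h with 0 h on 6 libraries each, and 8 h with 1 h on all 9. Standard errors were derived from each gene's F statistic and log2 fold change, and 95% intervals from its degrees of freedom. For some genes, such as Rps6 and Rpl28 at 8 h against 0 h, the reported p is larger than these standard errors give. Intervals of such genes are therefore narrower than the test. CPM per kb divide CPM by the deposited exonic length. Alternatives include DESeq2 1.42.0 and limma-voom (limma 3.58.1). The default of glmQLFit in this version is the option planned as its alternative, so the alternative run is the other option. The fits were tested on simulated counts. Intervals and floors cover counting error and the spread between libraries only.

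The genes, the lists and the naming rule were chosen with earlier results of these data known. The named genes are those called, the 5 highest and 5 lowest fold changes per comparison, the 5 highest and 5 lowest levels, and role groups; other genes named were chosen after their values were seen. The shared stretches (lengths of 36, 50 and 75 bases, on the APPRIS principal transcript, which replaced the longest one), the minimum of 10 CPM for intervals, the split by length, the exon overlaps, the pyrimidine run and the set of mitochondrial genes for levels were also chosen after seeing the data. Some items are not reported here. Unannotated copies in the genome are not covered by the shared stretches.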

Additional observations from a re-analysis of the deposited data

How the results depend on the processing

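No ribosomal protein gene was called in any of the 3 comparisons under any alternative run: other scalings, no filter on low counts, DESeq2, limma-voom, the other option of glmQLFit, other libraries in the fit, and leaving out each library or the libraries rich in Neurod6 (0 h replicate 2 and 1 h replicate 1). Leaving out each library in turn, the median log2 fold change ran from -0.016 to 0.018 at 8 h against 0 h, from -0.092 to -0.026 at 1 h against 0 h, and from 0.052 to 0.086 at 8 h against 1 h. Over the other alternatives it ran from -0.043 to -0.006, from -0.068 to -0.056 and from 0.051 to 0.076. As a share of total counts, the summed level of 8 h replicate 1 was 1860 CPM in place of 1899 CPM, a move by the scaling alone. Over the alternatives, 49 of 672 values of named genes changed sign at 8 h against 0 h, 61 of 656 at 1 h against 0 h and 33 of 686 at 8 h against 1 h, none of them called.

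Over all genes, 90, 2 and 94 were called at 8 h against 0 h, 1 h against 0 h and 8 h against 1 h. DESeq2 called 275, 14 and 197, and leaving out a library gave 33 to 84, 0 to 9 and 20 to 108; the cause was not tested. No pairing by replicate number was seen: correlations of same-numbered libraries ran from -0.246 to 0.242, and 4 of 9 were best with their own number. With 3 libraries per group these values cannot exclude a pairing. With a replicate block, 0 ribosomal protein genes and 158, 0 and 75 genes in all were called. Depth limits the 16 genes under 1 CPM.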

Other observations

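Of the ribosomal proteins whose symbols the naming rule leaves out, 7 were measured and 0 were called in any comparison. At 1 h against 0 h, 6 of them were tested. Their summed level was 163.4 to 172.1 CPM at 0 h and 154.2 to 158.8 CPM at 8 h, without overlap. The 1 h range, 156.5 to 163.6 CPM, overlapped both. The difference in these sums was not tested. Gnb2l1, which encodes the scaffold protein Rack1 on the head of the small subunit, averaged 95.6 CPM (± 3.32) at 8 h, against 100.9 CPM (± 3.78) at 0 h (SD over 3 libraries, here and below). Rpl7l1, a relative of Rpl7, averaged 26.3 CPM (± 0.959) at 8 h, against 30.02 CPM (± 0.506) at 0 h, with an edgeR adjusted p of 0.423. Fau, a ubiquitin-like fusion that yields a small subunit protein, averaged 1.06 CPM (± 0.523) at 8 h, against 0.499 CPM (± 0.173) at 0 h, with an edgeR adjusted p of 0.411.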
